A study of Homo sapiens with 12 samples.

Results

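The genes described here encode the 2 kinds of subunit of the placental glycoprotein hormone hCG: CGA, the alpha subunit, and CGB3, CGB5, CGB7 and CGB8, copies of the beta subunit gene. They are 5 of the 54261 genes of a table of FPKM values (fragments counted per kilobase of gene, scaled to the depth of the library), and were chosen by symbol with their values in these libraries already known, because their levels varied several-fold within groups. Their levels are therefore given as a description, without p-values. RNA was sequenced from BON-1, an established human pancreatic neuroendocrine tumour line, after poly(A) selection. There were 4 groups of 3 libraries: BON-1 cells grown alone, and BON-1 cells taken by flow cytometry out of co-cultures with CAFs, which commonly stands for cancer-associated fibroblasts, mixed 10:2, 10:4 or 10:6 (BON-1 to CAFs). All groups are of this single line. The labels give neither the source of the CAFs nor the purity of the sort, and do not say whether the cells grown alone passed the sorter or whether the libraries of a group came from separate cultures.

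Glycoprotein hormones are heterodimers in which the common alpha subunit pairs with a beta subunit that gives the hormone its identity: the CGB product in hCG, LHB in luteinizing hormone, FSHB in follicle-stimulating hormone and TSHB in thyroid-stimulating hormone. CGA is normally made in the placental syncytiotrophoblast and in gonadotropes and thyrotropes of the pituitary, and CGB in the syncytiotrophoblast. Free alpha subunit and hCG beta are also known as ectopic products of tumours, endocrine tumours of the pancreas among them. The CGB copies and LHB lie side by side in a cluster, whereas CGA stands alone on another chromosome.

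In GRCh38.p14 the protein-coding gene CGA (Entrez gene 1081) lies on chromosome 6 from 87085498 to 87095106. On chromosome 19, CGB3 (1082) runs from 49022869 to 49024333, CGB5 (93659) from 49043848 to 49045311, CGB8 (94115) from 49047638 to 49049111 and CGB7 (94027) from 49054274 to 49057749. Each value counts a gene as a whole, so exons and UTRs were not told apart. The upstream sequence of the 4 members that carry the signal is shown because CGA and the CGB genes, whose levels moved together, begin behind unlike sequences. They are RefSeq sequences of GRCh38.p14, read 5′ to 3′ on the strand of the gene and ending at the base before its annotated start. In CGA the capitals mark 2 matches to the cAMP response element and 1 to TATAAA. In the CGB genes they mark bases that differ from at least 1 of the other 2 sequences in pairwise alignment. A base opposite a gap inside an alignment is also in capitals.
CGA, upstream 250 bases, chr6:87095107-87095356, minus strand: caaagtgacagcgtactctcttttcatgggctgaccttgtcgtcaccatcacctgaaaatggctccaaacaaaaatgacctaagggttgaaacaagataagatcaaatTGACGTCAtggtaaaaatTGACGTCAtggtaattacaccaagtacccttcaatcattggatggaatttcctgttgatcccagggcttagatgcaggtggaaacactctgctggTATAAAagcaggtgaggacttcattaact
CGB5, upstream 250 bases, chr19:49043598-49043847, plus strand: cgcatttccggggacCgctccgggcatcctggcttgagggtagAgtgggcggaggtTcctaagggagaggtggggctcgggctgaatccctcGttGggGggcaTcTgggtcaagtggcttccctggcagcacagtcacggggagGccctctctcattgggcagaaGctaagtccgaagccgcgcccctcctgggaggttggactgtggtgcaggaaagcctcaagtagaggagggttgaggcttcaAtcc
CGB8, upstream 250 bases, chr19:49049112-49049361, minus strand: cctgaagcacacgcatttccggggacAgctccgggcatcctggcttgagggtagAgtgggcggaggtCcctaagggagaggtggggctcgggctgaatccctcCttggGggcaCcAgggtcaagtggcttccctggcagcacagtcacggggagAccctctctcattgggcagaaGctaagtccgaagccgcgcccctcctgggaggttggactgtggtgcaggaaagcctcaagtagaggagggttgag
CGB3, upstream 250 bases, chr19:49024334-49024583, minus strand: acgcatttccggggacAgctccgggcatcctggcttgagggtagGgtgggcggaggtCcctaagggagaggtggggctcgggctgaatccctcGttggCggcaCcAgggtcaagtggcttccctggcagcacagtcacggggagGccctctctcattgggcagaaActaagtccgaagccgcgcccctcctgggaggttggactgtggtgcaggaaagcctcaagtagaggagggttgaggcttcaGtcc

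The 3 CGB sequences were near copies of one another. CGB3 and CGB5 were identical at 96.79% of 249 aligned bases, CGB3 and CGB8 at 97.92% of 240, and CGB5 and CGB8 at 97.49% of 239. In CGA, TGACGTCA, the cAMP response element (CRE) to which CREB binds, matched at bases 142 to 135 and again at bases 124 to 117 before the start. TATAAA matched at bases 29 to 24 and AGATAA, to which GATA factors bind, at bases 156 to 151. On either strand, TGACGTCA was in 578 (1.65%) of 35116 RefSeq promoters of that length, with 2 or more matches in 19 (0.0541%). TATAAA was in 10.7% and AGATAA in 9.17%. None of these 3 motifs was found in the windows of CGB3, CGB5, CGB7 or CGB8, which says only that these letters were not there. GGGCGG, a GC box bound by SP1 and SP3 and present in 42.6% of promoters, matched 1 time each in CGB3, CGB5 and CGB8 and 2 times in CGB7. GCCNNNGGC, a form of the AP-2 site present in 19.8%, matched 1 time, in CGB7, over letters of 1 of its GC boxes. A match is a run of letters and was not tested as a binding site.

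CGA was the most abundant member in every library. In BON-1 alone it had 15.2, 83.8 and 28.7 FPKM in replicates 1, 2 and 3. At 10:2 it had 65.5, 102.7 and 159.7 FPKM, at 10:4 124.1, 148.2 and 131.3 FPKM, and at 10:6 71.8, 196.2 and 233.8 FPKM. All 9 co-culture libraries were above the median of BON-1 alone and 7 of the 9 above its highest library. The exceptions were replicate 1 at 10:2 and replicate 1 at 10:6. Group means were 42.6 ± 36.3 FPKM in BON-1 alone, 109.3 ± 47.5 at 10:2, 134.6 ± 12.4 at 10:4 and 167.3 ± 84.8 at 10:6 (SD, n = 3 each). The means followed the CAF share, but neighbouring groups were not separated: 10:2 overlapped BON-1 alone, the range at 10:2 enclosed that at 10:4, and the range at 10:6 enclosed it as well. In bulk RNA, a change in the number of cells that express a gene and a change in RNA per cell cannot be told apart.

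The spread of CGA within a group was far beyond counting error in BON-1 alone, at 10:2 and at 10:6. CGA was picked with this spread known, so it is a description. The values rest on 215 to 2781 reads per library, 16339 in all. In BON-1 alone the 95% Poisson intervals were 13.2 to 17.4, 79.6 to 88.0 and 25.6 to 32.1 FPKM for replicates 1, 2 and 3, and none overlapped. No intervals overlapped at 10:2 or at 10:6 either. At 10:4 those of replicates 1 and 3 overlapped, at 117.9 to 130.6 and 124.7 to 138.3 FPKM. The highest library exceeded the lowest 5.51-fold in BON-1 alone, 2.44-fold at 10:2, 1.20-fold at 10:4 and 3.26-fold at 10:6. The intervals cover counting error only, since reads without molecular identifiers need not be independent molecules.

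CGB5, one of the copies best known from placenta, was the highest of the beta subunit genes. It had 1.42, 11.7 and 5.01 FPKM in BON-1 alone, 7.67, 14.6 and 18.6 FPKM at 10:2, 15.5, 21.4 and 22.1 FPKM at 10:4, and 8.74, 34.8 and 42.5 FPKM at 10:6. The order of its group means was that of CGA, and every neighbouring pair of groups overlapped. The widest span within a group was 8.24-fold, in BON-1 alone.

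CGB8 stood second, with 0.875, 5.82 and 1.92 FPKM in BON-1 alone, 5.68, 8.09 and 9.21 FPKM at 10:2, 7.38, 9.48 and 10.4 FPKM at 10:4, and 6.01, 15.7 and 16.2 FPKM at 10:6. At 10:4 and 10:6 all libraries were above all of BON-1 alone, and at 10:2 replicate 1 was just below its highest. CGB3 had 1.17, 4.48 and 1.18 FPKM in BON-1 alone, 4.28, 5.55 and 6.67 FPKM at 10:2, 7.19, 6.82 and 7.61 FPKM at 10:4, and 4.83, 10.5 and 15.2 FPKM at 10:6. Its groups overlapped between neighbours except for 10:4, which was above 10:2 in all libraries.

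CGB7, the copy with the most divergent sequence of the 4, was barely detected. The reads recovered for it were 0, 3 and 1 in BON-1 alone, 1, 1 and 3 at 10:2, 7, 3 and 5 at 10:4, and 1, 10 and 6 at 10:6, or 41 in all. Its highest level was 0.293 FPKM, and it was the member that did not reach the filter of 1 FPKM in at least 3 libraries, which the other 4 passed. A count of 0 allows up to 3 reads, and no order between groups was read from counts of this size.

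**Figure D1:**
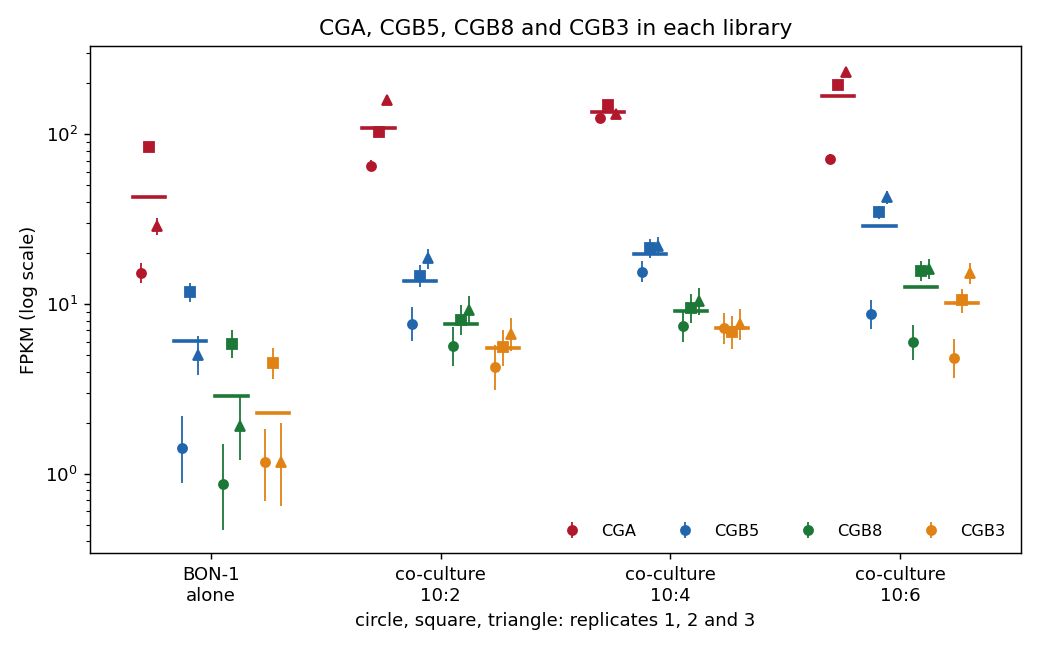
FPKM of CGA, CGB5, CGB8 and CGB3 (log axis) in each of the 12 libraries, by group; vertical bars are 95% Poisson intervals and horizontal bars group means. Replicate 1 (circles) is the lowest library of CGA, CGB5 and CGB8 in 4 of 4 groups, and 10:4 is the tightest group of CGA.

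The same libraries were largely high or low for CGA, CGB5, CGB8 and CGB3. Replicate 1 had the lowest CGA, CGB5 and CGB8 in 4 of 4 groups. It had the lowest CGB3 in 3 of 4, the exception being 10:4. At 10:4 replicate 2 had the highest CGA (148.2 FPKM) but the lowest CGB3 (6.82 FPKM). Replicate 3 there had the highest CGB5, CGB8 and CGB3. CGB3 in BON-1 alone was nearly equal in replicates 1 and 3, at 1.169 and 1.179 FPKM (18 and 14 reads). The labels do not say what a replicate number stands for. The deepest library, replicate 2 of BON-1 alone, had the highest level of each of the 4 genes in its group, and replicate 1 at 10:2, the shallowest, had the lowest; at 10:4 replicate 1 was the deepest and had the lowest CGA, CGB5 and CGB8. The part of depth in these levels was not tested.

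CGA and the beta subunit genes kept nearly the same proportion to one another. The summed FPKM of CGB3, CGB5, CGB7 and CGB8 was 3.47, 22.1 and 8.15 in BON-1 alone, 17.7, 28.3 and 34.6 at 10:2, 30.3, 37.8 and 40.3 at 10:4, and 19.6, 61.3 and 74.0 at 10:6. Across the 12 libraries CGA spanned 15.4-fold and the beta sum 21.4-fold. The ratio of CGA to the beta sum, each per length, lay between 3.16 and 4.62 with a median of 3.68, a span of 1.46-fold. By group it was 3.90 ± 0.441 in BON-1 alone, 3.99 ± 0.553 at 10:2, 3.76 ± 0.439 at 10:4 and 3.34 ± 0.279 at 10:6 (SD, n = 3 each). The lowest ratios, 3.16 and 3.20, were those of replicates 3 and 2 at 10:6, the libraries with the most CGA, and the range of 10:6 overlapped that of BON-1 alone.

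**Figure D2:**
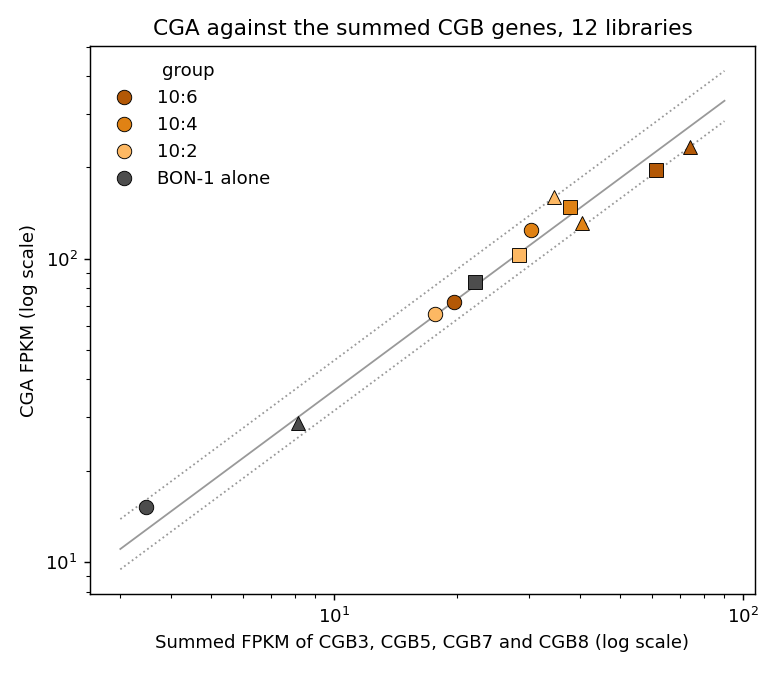
CGA FPKM against the summed FPKM of CGB3, CGB5, CGB7 and CGB8 (both axes log) in 12 libraries, coloured by group, with replicates 1, 2 and 3 as circles, squares and triangles. The solid line is the median ratio of 3.68 and the dotted lines are the lowest and highest ratios, 3.16 and 4.62; replicate 1 of BON-1 alone lies at the low end and replicate 3 of 10:6 at the high end.

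On log2(FPKM + 1) Pearson's r between CGA and the beta sum over the 12 libraries was 0.991 and Spearman's rho 0.972. Without the 2 libraries farthest from the median of CGA, r was 0.968. With each library taken as its deviation from its group mean, r was 0.984, so that the likeness was also there within groups. CGA correlated with CGB8 at 0.985, with CGB5 at 0.980 and with CGB3 at 0.966. For CGB7, with 0 to 10 reads a library, r was 0.746. These are descriptions: the points share the libraries, their scaling and, for the first values, the groups.

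Which beta copy contributed how much is less certain than the sum. CGB5 made up 41.1% to 61.5% of the beta sum in a library, CGB8 21.8% to 32.2%, CGB3 14.5% to 33.7% and CGB7 at most 0.730%. The transcripts of CGB5 and CGB8 were identical at 99.52% of aligned bases, those of CGB3 and CGB5 at 99.29% and those of CGB3 and CGB8 at 99.09%. Of 50-base windows of the transcript, 14.0% in CGB5, 17.2% in CGB8 and 20.4% in CGB3 occurred in no other gene, and of 150-base windows 36.3%, 47.7% and 47.3%. The share was 54.8% of 50-base windows for CGB7 and 100% for CGA. The sources used here do not give the read length or how reads that match several copies were counted, so the split among CGB3, CGB5 and CGB8 is uncertain, as is the size of the alpha to beta ratio.

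Set against BON-1 alone, the 4 members that passed the filter were higher on average in each co-culture. The 3 comparisons share the BON-1 alone libraries and are not independent of one another. Differences are in group means of log2(FPKM + 1), which understates the change of low genes. At 10:2 they were 1.59 ± 0.56 (SE) for CGA, 1.35 ± 0.43 for CGB8, 1.28 ± 0.61 for CGB5 and 1.12 ± 0.38 for CGB3, where the median of all 13312 genes tested was 0.0034. At 10:4 they were 1.97 for CGA, 1.84 for CGB5, 1.58 for CGB8 and 1.47 for CGB3, and at 10:6 2.12 for CGA, 2.12 for CGB5, 1.92 for CGB8 and 1.80 for CGB3, with the same SEs; the all-gene medians were -0.0104 and 0.0193. As ratios of mean FPKM, CGA was 2.57, 3.16 and 3.93 times its level in BON-1 alone at 10:2, 10:4 and 10:6, and CGB5 2.25, 3.25 and 4.73 times. Between the co-cultures the differences were smaller, the largest being 0.84 for CGB5 at 10:6 minus 10:2.

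By the threshold used for all genes (limma adjusted p of 0.05), 2 of the 4 members were called higher at 10:2 (CGB3 and CGB8), 4 at 10:4 and 4 at 10:6. Over all 13312 genes, 19.9% were called higher at 10:2, 27.3% at 10:4 and 29.7% at 10:6, or 27.4%, 45.4% and 48.0% in either direction. Every co-culture library was above every BON-1 alone library for 0 of the 4 at 10:2, 4 at 10:4 and 2 at 10:6 (CGB3 and CGB8), against 27.1%, 30.8% and 33.8% of all genes. Nothing is read from these member counts, since the genes were picked for these levels. Without the filter on low values, CGB5 was not called at 10:4 or 10:6 and no member was at 10:2. Single libraries moved the counts as well. At 10:2 no member was called without BON-1 alone replicate 1, BON-1 alone replicate 3, 10:2 replicate 2 or 10:2 replicate 3, and 3 were called without BON-1 alone replicate 2 or 10:6 replicate 1. Without 10:2 replicate 1, any of the 10:4 replicates or 10:6 replicate 2, 1 was called. At 10:4, 2 were called without BON-1 alone replicate 1, and 3, all but CGB5, without BON-1 alone replicate 3, 10:4 replicate 2 or 10:4 replicate 3. At 10:6, 3 were called, again all but CGB5, without BON-1 alone replicate 1, 10:6 replicate 2 or 10:6 replicate 3. Without BON-1 alone replicate 1 the difference of CGB5 was 0.66 at 10:2 and 1.22 at 10:4, and that of CGA at 10:2 was 1.04.

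Differences over all genes also moved with gene length and GC content. The longest transcript of CGA has a GC content of 42.9%, and those of CGB3, CGB5 and CGB8 65.6%, 65.2% and 65.1%. With trends on length and GC content removed, the difference of CGA was 1.40 at 10:2, 1.68 at 10:4 and 1.83 at 10:6. That of CGB5 was then 1.40, 1.96 and 2.27, so the gap between the 2 genes narrowed at 10:2 and CGB5 lay above CGA at 10:4 and 10:6. No member was then called at 10:2, and all 4 tested were at 10:4 and 10:6. Of the 12094 genes in that fit, 1400, 2793 and 3105 were called at 10:2, 10:4 and 10:6.

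The large spread between replicates set CGA and CGB5 apart in scale from most genes of their level. The pooled SD within groups on log2(FPKM + 1) was 0.902 for CGB5, 0.823 for CGA, 0.631 for CGB8 and 0.555 for CGB3. Among 7810 genes with a mean of at least 5 FPKM the median was 0.0683 and the 99th percentile 0.388. Only 6 of those genes had a larger SD than CGB5 and 7 larger than CGA. The 6 above CGB5 were short RNA genes, MIR3654, SNORD81, SNORD101, MIR1292, SNORD14C and MIR4740, with means of 5.51 to 12.4 FPKM, whereas CGA had a mean of 113.4 FPKM and ranked 639 of the tested genes by level. The spread was part of how these genes were picked, so its rank is a description.

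**Figure D3:**
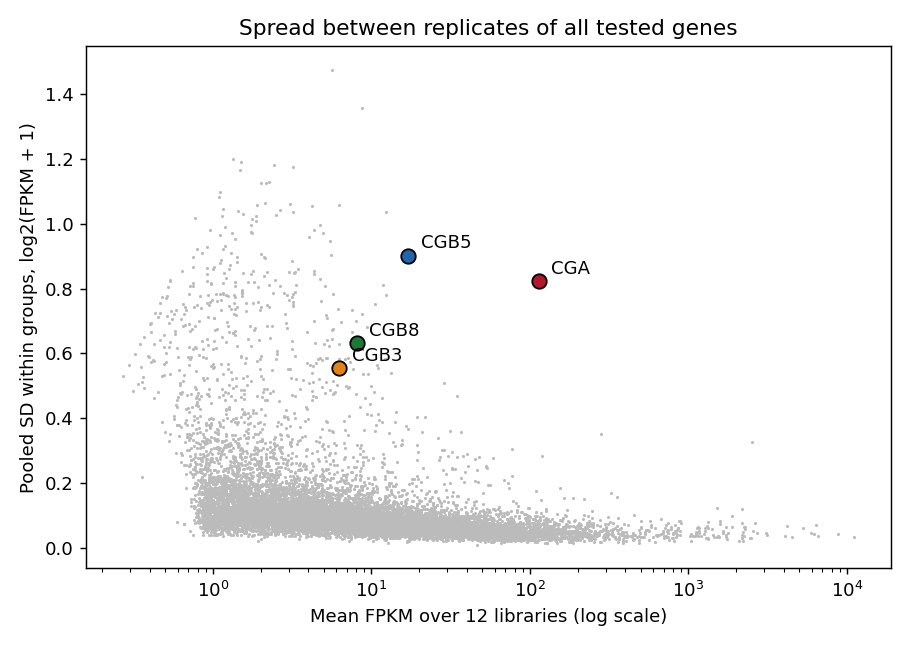
Pooled SD within groups of log2(FPKM + 1) against mean FPKM over 12 libraries (log axis) for all 13312 tested genes in grey, with CGA, CGB5, CGB8 and CGB3 marked. CGA, at a mean of 113.4 FPKM and an SD of 0.823, lies far above the other genes near its level.

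Other subunits of the family did not share these levels. LHB, the luteinizing hormone beta subunit and the neighbour of the CGB genes, averaged 1.18 ± 0.19 FPKM in BON-1 alone, 1.29 ± 0.585 at 10:2, 0.812 ± 0.455 at 10:4 and 1.26 ± 0.582 at 10:6 (SD, n = 3 each). It was not called in any comparison (log2 differences of 0.04, -0.29 and 0.02 at 10:2, 10:4 and 10:6; limma adjusted p = 0.926, 0.334 and 0.942). It had 4 to 18 reads a library. Its r with CGA was 0.024, and 0.236 on deviations from group means. With counts this small, r cannot show whether LHB followed CGA. LHB is identical to CGB5 at 92.4% of aligned bases, but 99.4% of its 50-base windows occurred in no other gene. CGB1 and CGB2, copies with a divergent start that are thought to encode another product, had 6 and 20 reads over the 12 libraries. GPHA2, the alpha subunit of thyrostimulin, had 46. FSHB, TSHB and GPHB5, the thyrostimulin beta subunit, were at 0 reads in 12 of 12 libraries, and so were the receptors LHCGR, FSHR and TSHR.

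The genes whose levels followed CGA most closely over the 12 libraries were the other members. CGB8, CGB5 and CGB3 ranked 1, 2 and 3 of all tested genes by Pearson's r with CGA. The next 5 were NME7 (r = 0.931), LGALSL (0.926), NETO2 (0.925), NIP7 (0.918) and PCMTD2 (0.914). NETO2, an auxiliary subunit of kainate receptors, had 26.1 to 29.9 FPKM in the co-cultures and 20.9 to 22.8 FPKM in BON-1 alone, a small range beside that of CGA. For the beta sum the 5 closest non-members were PCMTD2 (0.928), NIP7 (0.920), SNORA86 (0.918), RNF13 (0.918) and NME7 (0.914). Values this high are partly what a search through 13312 genes returns, and nothing about shared function or control follows from them.

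Within groups the closest genes were others. On deviations from group means, CGB8 (r = 0.973) and CGB5 (0.971) again came first, followed by RPS27L (0.937), CYP11A1 (0.936) and NABP2 (0.933), then by CGB3 (0.932), NETO2 (0.916) and PP7080 (0.909). For the beta sum the closest non-members were CYP11A1 (0.941), PP7080 (0.939), OAZ3 (0.929), C15orf48 (0.926) and RPS27L (0.914). CYP11A1, the side-chain cleavage enzyme that begins steroid hormone synthesis, had 0.387, 1.48 and 0.618 FPKM in BON-1 alone, 1.02, 1.44 and 1.47 FPKM at 10:2, 1.23, 1.35 and 1.37 FPKM at 10:4, and 0.554, 1.43 and 1.06 FPKM at 10:6. It was lowest in replicate 1 of every group, as CGA was, at 13 to 65 reads a library. RPS27L, a ribosomal protein of the S27 family known as a p53 target, moved far less, between 30.9 and 42.1 FPKM over all libraries.

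**Figure D4:**
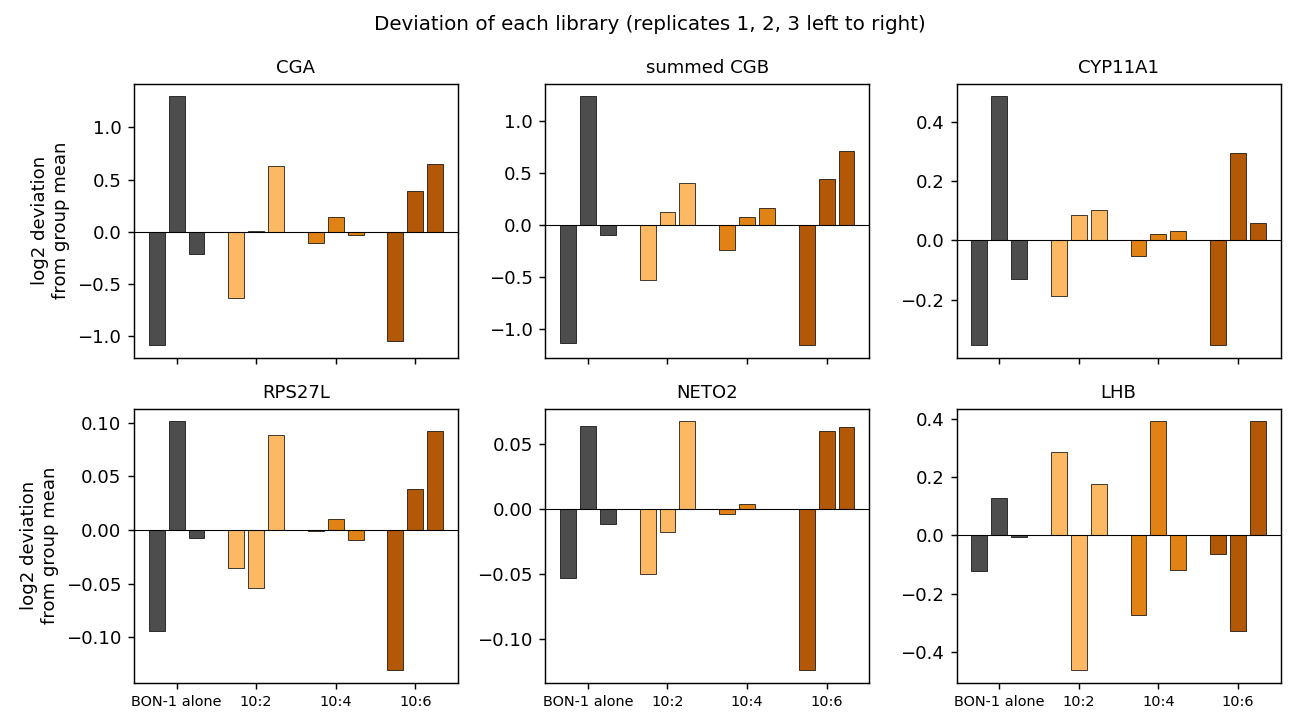
Deviation of each library from its group mean on the log2(FPKM + 1) scale for CGA, the summed CGB genes, CYP11A1, RPS27L, NETO2 and LHB; bars are replicates 1, 2 and 3 from left to right in each group, and each panel has its own vertical scale. Replicate 1 lies below its group mean in all 4 groups for CGA, the summed CGB genes, CYP11A1, RPS27L and NETO2. At 10:4 the deviations of replicate 1 were small for RPS27L (-0.0014) and NETO2 (-0.0039). The bars of LHB follow another order, but rest on 4 to 18 reads a library.

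The promoter of CGA is classically driven by cAMP through protein kinase A (PKA) and CREB. Of 16 listed genes of PKA and CREB, 15 were tested. At 10:2, 4 were higher and 0 lower, at 10:4 4 and 4, and at 10:6 4 and 2. Over all genes 19.9% were called higher and 7.46% lower at 10:2, 27.3% and 18.1% at 10:4, and 29.7% and 18.3% at 10:6. These shares are also the background for the counts of every list and marker set below, before removal of trends. CREB1, PRKACB, ATF2 and PRKAR1A were the higher ones at each ratio. PRKAR1A, a regulatory subunit of PKA, reached 50.9 ± 1.89 FPKM at 10:6, against 36.8 ± 1.27 in BON-1 alone (log2 difference 0.46, limma adjusted p = 6.14e-06). ATF2, a CREB-related factor that binds CRE, had 4.33 ± 0.205 FPKM at 10:4, against 2.33 ± 0.348 in BON-1 alone (0.69, adjusted p = 5.98e-05). PRKAR1B, another PKA regulatory subunit, fell to 24.7 ± 1.26 FPKM at 10:6, against 31.1 ± 0.246 in BON-1 alone (-0.32, adjusted p = 0.000324; -0.18 with trends on length and GC content removed). With those trends removed, 0 of the 15 were called higher at any ratio and 1, 5 and 4 lower, and PRKAR1A and ATF2 were not called (adjusted p = 0.56 at 10:6 and 0.069 at 10:4).

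Of 15 listed targets of CREB, 13 were tested, and more fell than rose. At 10:2, 2 were higher and 5 lower, at 10:4 3 and 5, and at 10:6 3 and 6. PCSK1, the prohormone convertase PC1/3, rose to 20.3 ± 0.421 FPKM at 10:6, against 14.7 ± 0.617 in BON-1 alone (log2 difference 0.44, limma adjusted p = 2.78e-05). FOS, an immediate early transcription factor, fell to 188.2 ± 5.7 FPKM at 10:4, against 222.5 ± 3.84 in BON-1 alone (-0.24, adjusted p = 2.94e-05; -0.15 with trends removed). VGF, a secreted neuroendocrine peptide precursor, fell to 341.9 ± 7.06 FPKM at 10:6, against 426.2 ± 12.4 in BON-1 alone (-0.32, adjusted p = 0.000154). The medians of the list were -0.09, -0.10 and -0.02 at 10:2, 10:4 and 10:6. With the trends removed 0 were higher and 3, 6 and 3 lower, and PCSK1 was not called (adjusted p = 0.0854 at 10:6).

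Transcription factors of trophoblast were tested in 8 of 17 cases. GCM1, TFAP2A, TFAP2C, GATA3 and DLX3, factors that drive hCG genes or trophoblast fate, were named after their values were seen. Each stayed at or under 0.37 FPKM in all 12 libraries. Tested factors of the list were higher, among them ETS2 at 36.07 to 39.41 FPKM and TEAD4 at 16.75 to 19.64 FPKM. GATA2 had 12.21 to 15.66 FPKM and PPARG 6.086 to 6.976 FPKM. Of the 8 tested, 1 was higher and 0 lower at 10:2, 2 and 2 at 10:4, and 2 and 1 at 10:6. SP3 and SP1, general factors that bind GC boxes, were the higher ones. SP3 reached 6.61 ± 0.651 FPKM at 10:4, against 3.62 ± 0.0286 in BON-1 alone (log2 difference 0.72, limma adjusted p = 2.74e-05, and 0.24 with adjusted p = 0.0197 with trends removed). SP1 reached 9.39 ± 0.269 FPKM at 10:6, against 7.50 ± 0.313 in BON-1 alone (0.29, adjusted p = 0.000309), and was not called with the trends removed (adjusted p = 0.979). Its call at 10:4 (adjusted p = 0.0178) ended without BON-1 alone replicate 2, BON-1 alone replicate 3 or 10:4 replicate 3 (adjusted p = 0.0505 to 0.0723), with median-of-ratios rescaling (0.0546), with quantile normalization (0.328) and with only the groups compared in the fit (0.0534). CDX2, a caudal homeobox factor of intestine and trophectoderm, fell to 5.91 ± 0.114 FPKM at 10:4, against 7.49 ± 0.355 in BON-1 alone (-0.30, adjusted p = 0.000663; -0.19 with trends removed).

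Transcription factors of the pituitary were tested in 5 of 15 cases, and 3 of the 15 were at 0 in all libraries. None of the 5 was called higher at any ratio, and 3, 2 and 2 were lower at 10:2, 10:4 and 10:6. PITX1, a homeobox factor known in mice to act on the alpha subunit gene in pituitary, had 25.1 ± 0.435 FPKM at 10:6, against 30.2 ± 1.12 in BON-1 alone (log2 difference -0.26, limma adjusted p = 0.000581; -0.14 with trends removed). Its call at 10:2 (adjusted p = 0.0191) ended without BON-1 alone replicate 2 or 3 or without 10:2 replicate 1 or 3 (adjusted p = 0.0535 to 0.0769). FOXL2, a forkhead factor of gonadotropes and ovary, fell to 4.03 ± 0.363 FPKM at 10:2, against 5.36 ± 0.162 in BON-1 alone (-0.34, adjusted p = 0.00145); its call at 10:6 (adjusted p = 0.0474) ended on leaving out any library but 10:2 replicates 1 and 3 and 10:6 replicate 1 (adjusted p = 0.0557 to 0.137). EGR1, an immediate early factor known in mice to drive Lhb, fell to 72.0 ± 2.58 FPKM at 10:4, against 91.1 ± 2.43 in BON-1 alone (-0.33, adjusted p = 0.000118), but was 94.0 ± 1.45 at 10:6 (adjusted p = 0.444; with trends removed 0.14, adjusted p = 0.0275). With trends removed 2, 1 and 1 of the 5 were lower at 10:2, 10:4 and 10:6, and 1, EGR1, was higher at 10:6. The calls of PITX1 at 10:2 and 10:4 (adjusted p = 0.47 and 0.489) and of FOXL2 at 10:6 (adjusted p = 0.761) then ended.

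Other hormones and placental products gave few calls. Of 30 listed placental products 9 were tested, with 0 higher and 1 lower at 10:2, 1 and 1 at 10:4 and 0 and 1 at 10:6. GDF15, a stress cytokine abundant in placenta, was the lower one, at 416.8 ± 13.8 FPKM at 10:4, against 482.6 ± 6.21 in BON-1 alone (log2 difference -0.21, limma adjusted p = 0.00011; -0.08 with trends removed). With trends removed its calls at 10:2 and 10:6 ended (adjusted p = 0.272 and 0.607), and the list then had 0 higher and 0 lower at 10:2, 0 and 2 at 10:4, and 1 and 1 at 10:6. ERVW-1, which encodes the fusion protein syncytin-1, was called at 10:4 with 1.36 ± 0.257 FPKM, against 0.554 ± 0.363 in BON-1 alone (0.62, adjusted p = 0.0379), but not without BON-1 alone replicate 1, BON-1 alone replicate 3, 10:4 replicate 2 or 10:4 replicate 3 (adjusted p = 0.0691 to 0.149) and not with trends removed (adjusted p = 0.116). LGALS16, a placental galectin, had 1.35 ± 0.462 FPKM at 10:2, against 0.498 ± 0.183 in BON-1 alone (0.64, adjusted p = 0.0534), and was called without 10:2 replicate 1, 10:4 replicate 1 or 3, or 10:6 replicate 3 (adjusted p = 0.0263 to 0.0471). POMC, precursor of ACTH and the tested gene of 3 listed pituitary hormones, had 22.5 ± 1.55 FPKM at 10:6, against 24.9 ± 1.16 in BON-1 alone (-0.14, adjusted p = 0.0397). That call ended without BON-1 alone replicate 1, BON-1 alone replicate 2, 10:6 replicate 2 or 10:6 replicate 3 (adjusted p = 0.087 to 0.153) and with trends removed (adjusted p = 0.99).

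Genes of protein folding in the endoplasmic reticulum, where the subunits fold and pair, were tested in 9 of 9 cases. At 10:2, 5 were higher and 1 lower, at 10:4 6 and 3, and at 10:6 6 and 1. HSP90B1, the chaperone GRP94, reached 140.5 ± 6.93 FPKM at 10:4, against 81.5 ± 1.3 in BON-1 alone (log2 difference 0.78, limma adjusted p = 1.26e-07). CANX, calnexin, which holds glycoproteins until they fold, reached 140.7 ± 4.71 FPKM at 10:6, against 79.3 ± 2.1 in BON-1 alone (0.82, adjusted p = 2.03e-07). HSPA5, the chaperone BiP, reached 204.0 ± 3.89 FPKM at 10:6, against 166.9 ± 2.52 in BON-1 alone (0.29, adjusted p = 3.23e-06; 0.10 with trends removed). The 3 lower at 10:4 were P4HB, PDIA4 and CALR. With the trends removed 2, 2 and 3 were higher and 0 lower; HSP90B1 and CANX were still called at each ratio, at 0.40 for HSP90B1 at 10:4 and 0.42 for CANX at 10:6.

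Genes next to the members gave smaller differences than the members. Of 10 listed neighbours of the CGB genes 8 were tested, with 0 higher and 2, 6 and 5 lower at 10:2, 10:4 and 10:6. FTL, ferritin light chain, had 4141 ± 164.8 FPKM at 10:6, against 5020 ± 88.2 in BON-1 alone (log2 difference -0.28, limma adjusted p = 1.42e-05), but under quantile normalization it was not called at any ratio (0.00, 0.00 and -0.05 at 10:2, 10:4 and 10:6), and with trends removed it was -0.15 at 10:6. RUVBL2, an ATPase of chromatin remodelling complexes, had 177.4 ± 4.28 FPKM at 10:6, against 221.5 ± 0.846 in BON-1 alone (-0.32, adjusted p = 2.61e-05; -0.17 with trends removed). SNRNP70, a U1 snRNP protein, had 149.9 ± 4.05 FPKM at 10:6, against 172.0 ± 2.41 in BON-1 alone (-0.20, adjusted p = 0.00081), and was not called with the trends removed (adjusted p = 0.223). With the trends removed 1, 2 and 2 of the 8 were lower and 0 higher, and RUVBL2 was not called at 10:4 (adjusted p = 0.132). Of 9 neighbours of CGA 6 were tested, with 2, 4 and 3 higher and 0 lower. SYNCRIP, an RNA-binding protein, reached 21.3 ± 1.15 FPKM at 10:4, against 13.1 ± 0.275 in BON-1 alone (0.66, adjusted p = 5.98e-06). ORC3, of the origin recognition complex, reached 5.43 ± 0.444 FPKM at 10:4, against 3.13 ± 0.373 in BON-1 alone (0.64, adjusted p = 0.000759), and RARS2, the mitochondrial arginyl-tRNA synthetase, 10.4 ± 0.268 FPKM at 10:6, against 7.88 ± 0.716 in BON-1 alone (0.37, adjusted p = 0.000813). With trends removed 1 neighbour of CGA was higher at each ratio: SYNCRIP, with differences of 0.14, 0.16 and 0.13 at 10:2, 10:4 and 10:6.

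**Figure D5:**
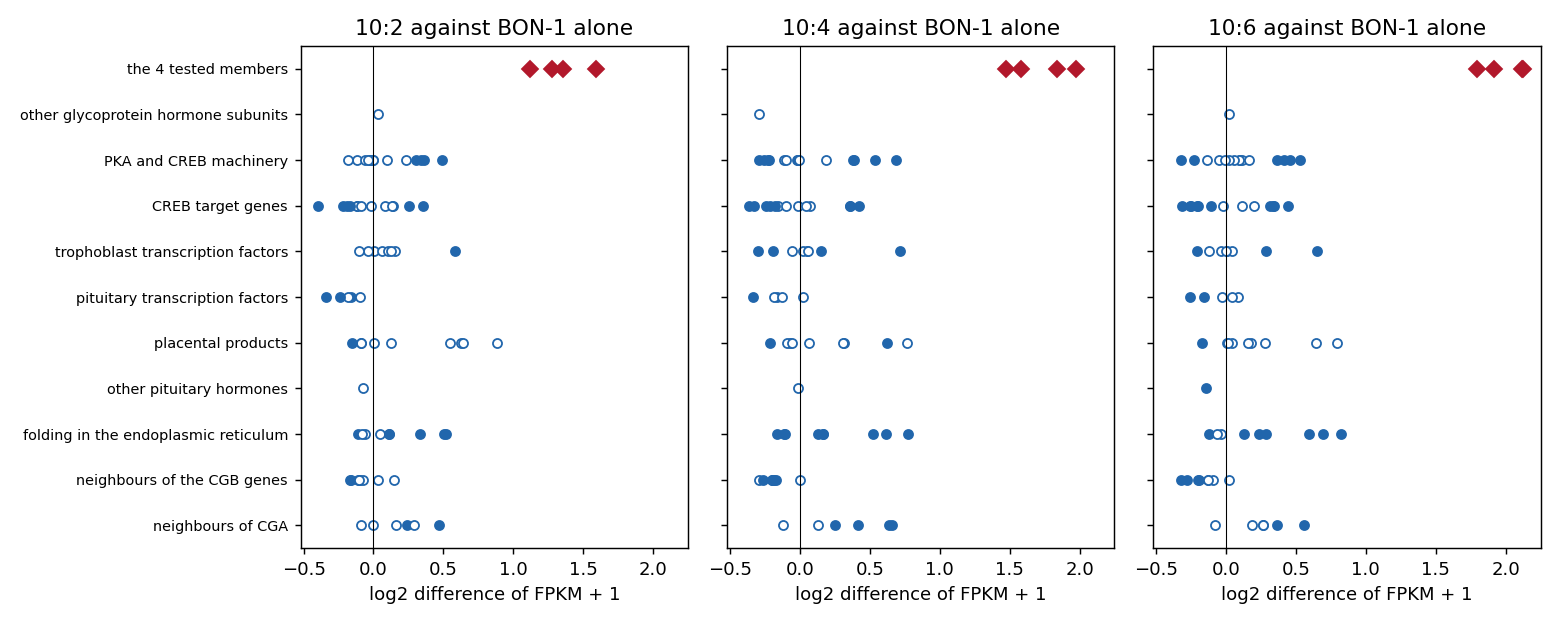
Log2 differences of FPKM + 1 from BON-1 alone at 10:2, 10:4 and 10:6, 1 point per tested gene; diamonds are CGA, CGB3, CGB5 and CGB8, and filled circles are listed genes called by limma (adjusted p under 0.05). On this scale, which understates the change of low genes, the 4 members lie between 1.12 and 2.12. Every listed gene lies below them in each panel. That order depends on the scale: with limma-voom on recovered reads at 10:2, LGALS16 (1.41) was above CGB3 (1.39), though not above CGA, CGB5 or CGB8.

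In all, 73 of 132 listed genes outside the members were tested, and 14 were at 0 in all 12 libraries. Of the 73, 14 were higher and 12 lower at 10:2, 20 and 23 at 10:4, and 18 and 19 at 10:6, and the list medians were -0.0054, -0.0133 and 0.0254. Removal of the trends left 5 higher and 6 lower, 5 and 17, and 8 and 11. The p-values measure differences against the spread between libraries of a group, which may be technical.

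The libraries held 11703624 to 21882537 counted reads, and neuroendocrine markers were high in all of them. The summed level of 6 such markers was 2778 to 2955 FPKM in the co-cultures and 2553 to 2627 FPKM in BON-1 alone. That sum hid opposite directions: SCG2 and CHGB were called higher at each ratio, whereas 3, 4 and 4 of the 6 were lower at 10:2, 10:4 and 10:6. CHGA, chromogranin A, fell to 945.2 to 1019 FPKM at 10:6, against 1322 to 1374 FPKM in BON-1 alone. Of 19 fibroblast markers 14 were tested, and 7, 12 and 12 were higher at 10:2, 10:4 and 10:6 with 0 lower. Their summed FPKM was 2388 to 2470 in BON-1 alone, 2258 to 2338 at 10:2, 2342 to 2593 at 10:4 and 2520 to 2805 at 10:6. S100A4, at up to 2475 FPKM, made up most of these sums. Without it the sum of the other markers was 139.0 to 143.0 FPKM in BON-1 alone, 171.2 to 176.1 at 10:2, 253.0 to 258.3 at 10:4 and 327.5 to 330.0 at 10:6. COL1A1, a chain of type I collagen, had 53.5 to 55.0 FPKM at 10:6, against 9.05 to 9.31 in BON-1 alone, ACTA2 37.9 to 39.3 against 5.44 to 6.49, and SPARC 34.0 to 35.4 against 4.69 to 5.58. DCN, LUM and FAP were low, at or under 0.404, 0.604 and 0.177 FPKM in all libraries, and were not tested. They too were higher at 10:6 than in BON-1 alone. DCN had 0.2601 to 0.4037 FPKM against 0.01367 to 0.05321, LUM 0.4008 to 0.6035 against 0.07316 to 0.1974, and FAP 0.03692 to 0.177 against 0.0 to 0.0152. The sum without S100A4 thus rose with the CAF share, as the group means of CGA did, while within each group it varied little where CGA varied up to 5.51-fold. With S100A4 included, the library of the highest sum had the lowest CGA at 10:4 and 10:6 (replicate 1 in each), and the highest CGA in BON-1 alone (replicate 2) and at 10:2 (replicate 3). The part of fibroblast RNA in the levels of the members was not tested. Of 8 trophoblast markers, CSH1 was at 0 and the sum was 2.57 to 6.41 FPKM in the co-cultures and 1.03 to 3.36 FPKM in BON-1 alone. The 5 markers of gonadotropes and thyrotropes summed to at most 0.0803 FPKM, with FSHB, TSHB and POU1F1 at 0. The 7 leukocyte and endothelial markers summed to 34.6 to 39.6 FPKM over all libraries and 36.41 to 38.55 in BON-1 alone, with CD3E at 0. CDH5, at a mean of 27.9 FPKM over the 12 libraries, made up most of that sum. Of the 3 tested, 0 were called at 10:2, 1 was higher at 10:4, and 1 was higher and 1 lower at 10:6.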

How the data were processed

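Poly(A)-selected RNA of 12 libraries was measured. The authors deposited 1 table of FPKM values with 54261 genes; per the submitters' processing notes, HISAT2, featureCounts and the build hg38 were used, and the sources used here give neither versions nor the order of steps. Each column was tied to its sample by the code that the title carries, and none was left over.

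Reads were recovered from the steps of the FPKM values, by a search for the gene length (up to 200000 bases) that turned all values of a gene into whole reads within 1e-06; 99.97% of 267349 nonzero values were whole, and they summed to at least 99.9629% of the denominator. Precision is given as 95% Poisson intervals of these reads.

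The 13312 genes that reached 1 FPKM in 3 or more libraries were fitted as log2(FPKM + 1) with limma 3.58.1 under R 4.3.3, all 12 libraries in 1 fit with a mean for each group, empirical Bayes with a variance trend, and Benjamini-Hochberg adjustment over all genes within a comparison (threshold 0.05). The procedure was run on simulated data. Their spread between replicates was not set to that of the members, so they say nothing about member calls. The members and gene lists were chosen with earlier results of these data known. Member p-values are therefore not printed, and nothing is read from how many members passed the threshold. No list was tested as a set. By rule the text names every subunit and receptor. In each other list it names the up to 3 genes with the smallest p in any comparison with BON-1 alone. Further listed genes were named outside this rule, among them ETS2, TEAD4, GATA2, PPARG, CREB1, PRKACB, P4HB, PDIA4 and CALR. The likeness rule takes the 5 non-members with the highest r. Positions and upstream sequences are from RefSeq, GRCh38.p14, matched by symbol for all 5 members; GC content is of the longest transcript in GENCODE 29, with GC content and length known for 12094 tested genes (90.85%). Alternatives changed the pseudocount, the filter, the scaling, the libraries in the fit, the replicate number as a block, the length and GC trends (splines with 5 degrees of freedom each), the model (limma-voom on recovered reads), and left out each library in turn. Other tools were Python 3.11.15, Biopython 1.88, scipy 1.17.1, numpy 2.4.6, pandas 2.3.3 and matplotlib 3.10.9.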

Additional observations from a re-analysis of the deposited data

How the results depend on the processing

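Genes called changed by less than 1.5 times under each alternative except removal of length and GC trends, which left 1400 genes at 10:2, 2793 at 10:4 and 3105 at 10:6 (52.3%, 45.9% and 45.1% of them higher, against 72.8%, 60.2% and 61.8% before) and 11, 22 and 19 listed genes. Members called at 10:2 were 0 without a filter on low values, under quantile normalization, with only the groups compared in the fit and with trends removed. They were 4 with limma-voom on recovered reads. Without the filter 3 were called at 10:4 and at 10:6, all but CGB5. Under all these alternatives the differences of CGA, CGB3, CGB5 and CGB8 moved by less than 1 pooled SD and kept their sign; CGB7, which did not pass the filter, was not followed. With trends removed, 4 differences of named genes that had been called turned sign and lost the call. They were HSPA5 at 10:2 (-0.0062) and, at 10:4, PRKAR1A (-0.0734), SP1 (-0.0927) and RARS2 (-0.0901). Differences that had not been called turned as well, among them SP1 (-0.0752) and RARS2 (-0.0638) at 10:2 and ORC3 (-0.1411) at 10:6. Among all other values of named genes under alternatives, 1465 stayed on their side of the threshold, 64 lost the call and 27 gained it. Uncalled values that changed sign are counted among the 1465. The cause was not tested.

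Leaving out each library in turn gave 2588 to 3807 genes called at 10:2, 5070 to 6063 at 10:4 and 5405 to 6464 at 10:6; 22 to 28, 40 to 45 and 31 to 38 listed genes; and 0 to 3, 2 to 4 and 3 to 4 members. The differences ranged from 1.04 to 2.24, 1.43 to 2.62 and 1.58 to 2.77 for CGA, 0.90 to 1.56, 1.25 to 1.92 and 1.47 to 2.24 for CGB3, 0.66 to 1.86, 1.22 to 2.42 and 1.4996 to 2.79 for CGB5, and 0.93 to 1.87, 1.16 to 2.09 and 1.5001 to 2.43 for CGB8.

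With the replicate number as a block, 3240, 5739 and 6104 genes and 28, 44 and 38 listed genes were called at 10:2, 10:4 and 10:6, with 4 members at each ratio. The numbers were not shown to pair the samples: over all genes, deviations of same-numbered libraries correlated at -0.043 to 0.046 in 18 pairs, with 0 over 0.1, and of other pairs at -0.053 to 0.062.

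With 3 libraries a group, a single library can decide whether a member passes the threshold. Counts of 0 to 10 reads limit CGB7, and near-identical sequence limits the split among CGB3, CGB5 and CGB8. Depth was 11703624 to 15327524 reads in the co-cultures.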
